A study of Mus musculus with 7 samples.

Results

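The matrix metalloproteinases (MMPs), the ADAM and ADAMTS proteases, the ADAMTS-like proteins and the tissue inhibitors of metalloproteinases (TIMPs) were examined as a set in C3H10T1/2 cells treated with purmorphamine or vehicle. Members were the rows of the gene count table whose symbol is Mmp, Adam, Adamts or Adamtsl followed by a number, with a closing letter allowed for Mmp and Adam, or is Timp1 to Timp4. The rule reads the symbol and no measured value. It found 57 of 18468 genes, of which 40 were among the 12388 genes with enough reads to be tested. C3H10T1/2 is an established line of mouse embryo fibroblasts that can be turned toward bone, cartilage or fat, and purmorphamine is a small molecule that activates Smoothened, the transducer of Hedgehog signals. Unmodified cells of this line were kept without serum for 12 h and then received vehicle (0.02% DMSO, 3 libraries, numbered 2 to 4 in the labels) or 2 µM purmorphamine (4 libraries, numbered 5 to 8) for a further 48 h without serum. Values are sense-strand reads per gene from total RNA, and every library held between 14337225 and 14342154 reads assigned to genes, because the authors drew reads down to equal numbers. The labels do not say whether the libraries of a group came from separate cultures, so that p-values measure only the spread between these libraries, which may be technical.

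MMPs, ADAMs and ADAMTS proteases belong to the metzincins, enzymes that hold a zinc ion in the active site. MMPs cleave collagens, gelatin and other matrix proteins, ADAMs are mostly membrane proteins that release the outer parts of cell surface proteins, and ADAMTS proteases are secreted enzymes that trim procollagens, cleave proteoglycans such as aggrecan and versican, or act on the microfibrils of the matrix. ADAMTS-like proteins share the accessory domains of the ADAMTS family without a protease domain, and TIMPs bind and inhibit the proteases. In mesenchymal cells these genes set how matrix is built, processed and removed.

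The zinc site can be read in the coding sequence. It is a run of 11 codons with 3 histidines that hold the zinc and a glutamate that takes part in catalysis (histidine, glutamate, any, any, histidine, any, any, glycine or asparagine, any, any, histidine). The run was found in the longest coding sequence (GENCODE M21, GRCm38) of 40 of the 57 members: 14 of 14 MMPs, 10 of 17 ADAMs, 16 of 17 ADAMTS, 0 of 5 ADAMTS-like genes and 0 of 4 TIMPs. The 8 genes below are shown because the results turn on them, as 4 pairs of relatives. The codons of the 3 histidines and of the glutamate are in capitals, and where a site is split by an intron the coordinates span the intron.
Mmp2, chr8:92839279-92839311, plus strand, exon 8: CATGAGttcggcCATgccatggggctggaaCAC
Mmp14, chr14:54437627-54437659, plus strand, exon 5: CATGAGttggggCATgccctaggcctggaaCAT
Adamts2, chr11:50775403-50776134, plus strand, exons 7 and 8: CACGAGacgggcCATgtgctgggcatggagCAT
Adamts14, chr10:61225465-61227123, minus strand, exons 7 and 8: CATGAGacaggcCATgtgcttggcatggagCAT
Adamts1, chr16:85799191-85799545, minus strand, exons 3 and 4: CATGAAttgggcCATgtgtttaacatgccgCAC
Adamts9, chr6:92905285-92908493, minus strand, exons 8 and 9: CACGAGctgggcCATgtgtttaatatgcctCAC
Adamts16, chr13:70787149-70791812, minus strand, exons 8 and 9: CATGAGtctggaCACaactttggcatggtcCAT
Adamts18, chr8:113767168-113771052, minus strand, exons 8 and 9: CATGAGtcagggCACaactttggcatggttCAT
Of the 33 bases, 30 were identical between Adamts2 and Adamts14, 30 between Adamts16 and Adamts18, 28 between Adamts1 and Adamts9 and 27 between Mmp2 and Mmp14. Between Adamts14 and Mmp2, of different families, 22 were identical. Other pairs within a family ranged widely. Adamts1 shared 28 with Adamts15, 27 with Adamts4 and 20 with Adamts5. Adamts6 and Adamts10 shared 26, Mmp2 and Mmp9 25, and Adamts5 and Adamts9 only 18. A close match of the site is therefore not a trait of every pair within a family. The 8th codon reads asparagine (aac or aat) in Adamts1 and Adamts9 and in 3 further ADAMTS genes, Adamts4, Adamts15 and Adamts20, and glycine in every other site found. The search allowed only glycine or asparagine at that codon, so a site with another residue there was missed. Adamts8 is the ADAMTS gene without a match, and whether it holds such a site was not examined. Members were called at an edgeR adjusted p under 0.2, a rule given below. Among the 30 tested members with the site, 11 increased (Adamts18 among them), 17 decreased and 2 were not called with purmorphamine. Among the 10 tested members without it 4 increased and 6 decreased. Of all genes tested, 31.4% increased and 31.1% decreased by that rule, so these counts by themselves say little about the site.

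Purmorphamine raised 15 of the 40 tested members and lowered 23, whereas Mmp23 and Mmp28 did not pass the test. A gene was called where edgeR's quasi-likelihood test gave an adjusted p under 0.2, the false discovery rate used in the study. By the same rule 62.5% of all tested genes were called (31.4% increased, 31.1% decreased), so that a call by itself says little about a member, and the sizes matter more. A change of at least 1.5-fold was called for 18 of the 40 members (8 increased, 10 decreased) beside 15.4% of all genes tested (7.89% increased, 7.56% decreased). A change of at least 2-fold was called for 10 members (6 increased, 4 decreased) beside 6.66% (3.2% increased, 3.45% decreased). Adamts18 passed the filter on low counts only through its purmorphamine libraries, where it was high, and without it 7 members increased at least 1.5-fold and 5 at least 2-fold among 39 tested, with 14 increased in all. The median size of the change was 0.54 on the log2 scale over the members and 0.20 over all genes, and the median with its sign was -0.14 and 0.0038. The tested members held a median of 494 reads per library beside 426 for all genes tested, and 69.0% of genes at or above the members' median were called. In the deposited counts the groups did not overlap for 31 of the 40 members (30 of 39 without Adamts18), beside 49.5% of all genes. An exact two-sided permutation test ran over the 35 ways of dividing the libraries. Of the 40 members 24, Adamts18 among them, reached 0.0286, beside 37.2% of all genes tested. This is the smallest p that test can give with 3 libraries against 4.

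The families did not share a direction. None of the 8 tested MMPs increased and 6 decreased, and all 3 tested TIMPs decreased. Of the 11 ADAMs 4 increased and 7 decreased, and of the 4 ADAMTS-like genes 3 increased and 1 decreased. Of the 14 ADAMTS genes 8 increased and 6 decreased (7 and 6 of 13 without Adamts18). The median log2 change was -0.40 in MMPs, -0.11 in ADAMs, 0.25 in ADAMTS (0.15 without Adamts18), 0.79 in ADAMTS-like genes and -0.36 in TIMPs. No difference between families was tested. The plot of the change of each member shows this spread.

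**Figure D1:**
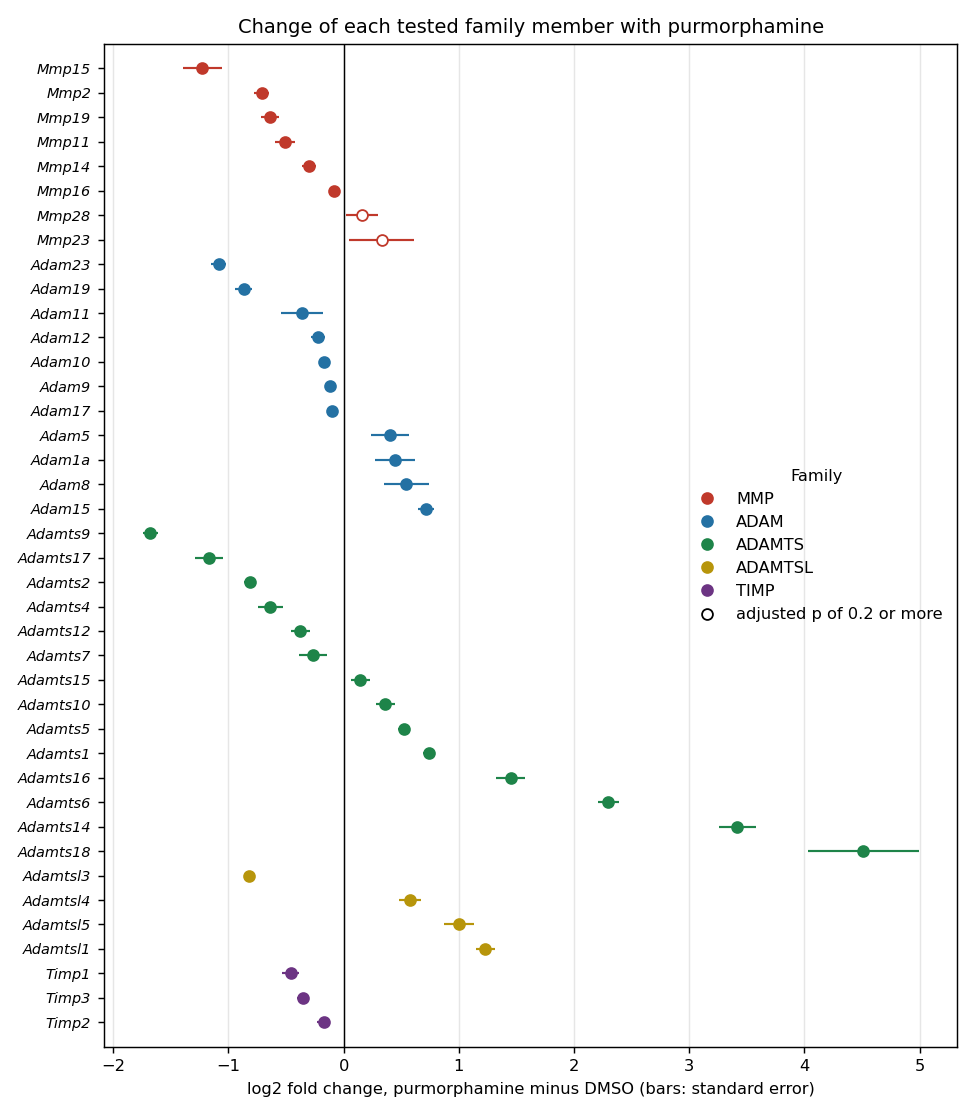
Each point is the log2 fold change of a tested member, purmorphamine minus DMSO, with its standard error as a bar, coloured by family. Open points mark Mmp23 and Mmp28, the 2 members with an adjusted p of 0.2 or more. ADAMTS genes span the widest range, from -1.68 for Adamts9 to 4.51 for Adamts18.

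The cells carried the markers of a mesenchymal fibroblast in every library. All 8 markers of that list were tested (Vim, Col1a1, Col1a2, Col3a1, Thy1, Pdgfra, Pdgfrb and Fn1), with a summed 350806 to 372349 reads with DMSO and 332851 to 365014 with purmorphamine. Within the list 3 increased, 2 decreased and 3 were not called, with Vim 1.89-fold lower and Thy1 and Pdgfra 1.73-fold and 1.75-fold higher with purmorphamine (log2 change -0.96, 0.74 and 0.76, edgeR adjusted p = 1.73e-11, 1.61e-08 and 3.92e-10). Gli1, the classical target of Hedgehog signals, rose from 7 to 12 reads with DMSO to 2522 to 3171 with purmorphamine. Of the leukocyte and macrophage markers, Ptprc and Itgam held at most 1 read in any library and Csf1r at most 3. Cd68, the only tested gene of that list, held 10 to 18 reads and was not called (edgeR adjusted p = 0.702). The 4 listed leukocyte genes with a row summed to 13 to 19 reads with DMSO and 10 to 21 with purmorphamine. Epithelial keratins Krt14 and Krt19 held at most 1 read, while Cdh1 rose from 14 to 21 reads to 110 to 135, and the list of 5, of which 3 have a row, summed to 14 to 22 and 110 to 136 reads. Of the 5 endothelial markers Pecam1, Kdr and Tie1 held at most 5 reads, whereas Tek rose from 770 to 816 reads to 1870 to 2124 and Cdh5 went from 0 reads to 21 to 26, so that the list summed to 779 to 820 and 1898 to 2154 reads. The part of Vim, Thy1, Pdgfra, Cdh1, Tek and Cdh5 in the changes of the protease genes was not tested. In RNA from whole cultures, fewer cells that express a gene and less of its RNA per cell cannot be told apart, and this holds for every value that follows.

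On a scale of reads per kilobase of exon corrected for library size (RPKM), the inhibitors Timp2 and Timp3 and the proteases Mmp2 and Mmp14 were the most abundant members. With DMSO the level in RPKM was 597 ± 22.7 (SD, n = 3) for Timp2, 327 ± 15.4 for Mmp2, 304 ± 3.71 for Timp3, 127 ± 3.9 for Mmp14 and 69.2 ± 0.968 for Adam9. With purmorphamine the level of Mmp2 was 206 ± 21.1 (SD, n = 4), below that of Timp3 at 245 ± 7.74, and Timp2 stayed highest at 547 ± 40.6. Adamts1 (57.3 ± 1.4 with DMSO, 98.9 ± 4.27 with purmorphamine) and Adamts5 (54.5 ± 1.41 and 81.1 ± 4.09) were the most abundant ADAMTS genes in both groups. The genes with the largest fold changes lay low in this order, since Adamts14 had a level of 0.917 ± 0.182 with DMSO, Adamts6 of 1.32 ± 0.0671 and Adamts18 of 0.0114 ± 0.0143.

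**Figure D2:**
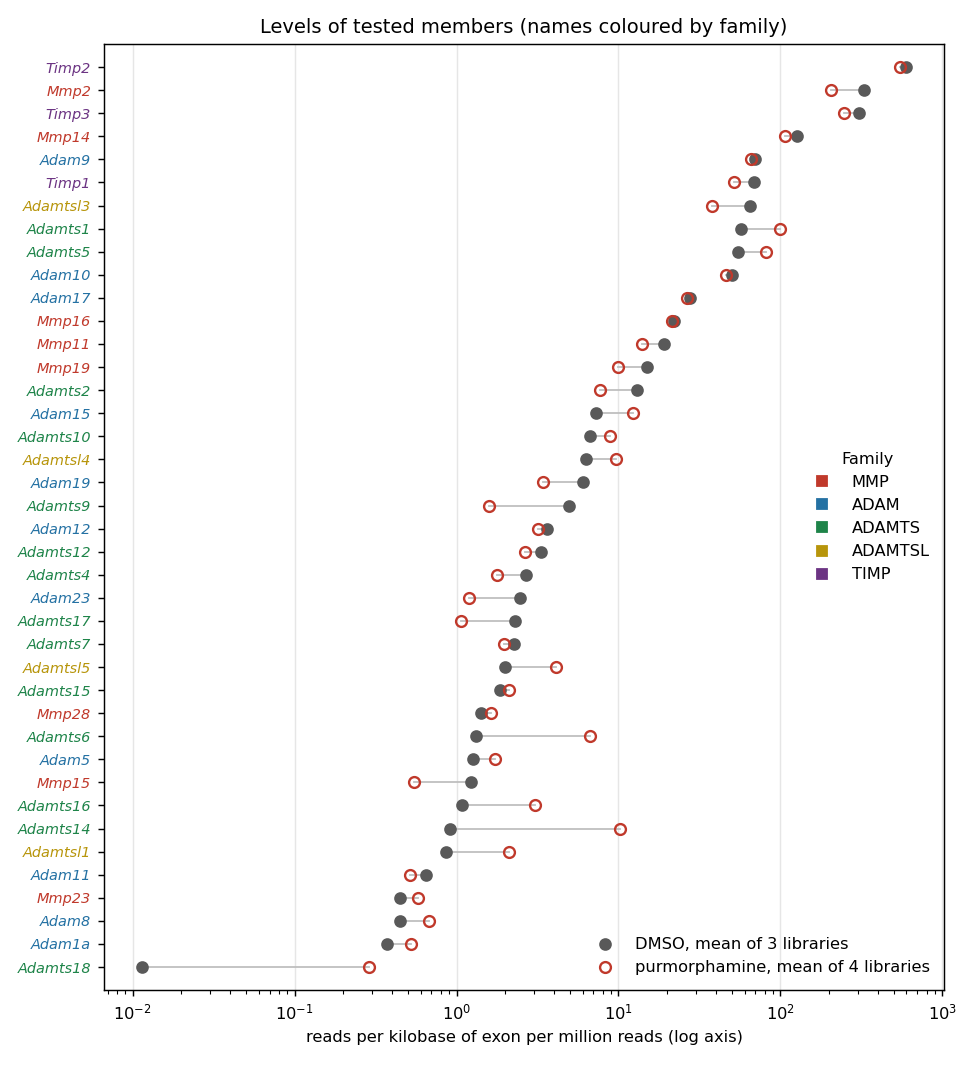
The mean level of each tested member in RPKM (reads per kilobase of exon, corrected for library size) is drawn on a log axis, with DMSO (3 libraries) as filled and purmorphamine (4 libraries) as open circles joined by a line. Timp2 is at the top with 597 and Adamts18 at the bottom with 0.0114 with DMSO, and the long lines to the right belong to Adamts14, Adamts6 and Adamts18 in the lower part of the order.

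All 3 tested TIMPs fell by less than 1.5-fold. They kept this call and direction in each of the 13 alternative analyses, which leave out the threshold of 1.5-fold. With that threshold 0 of the 3 were called. Timp3 is held in the matrix and inhibits ADAMs and ADAMTS proteases as well as MMPs. It had 35038, 35448 and 35903 reads with DMSO and 27510, 28360, 29566 and 29138 with purmorphamine. Every purmorphamine library was below every DMSO library (log2 change -0.36, SE 0.0460, edgeR adjusted p = 6.96e-06, exact p = 0.0286). Timp1, a secreted inhibitor of most MMPs, had 831, 820 and 961 reads with DMSO and 678, 726, 605 and 606 with purmorphamine. Its groups did not overlap either (log2 change -0.46, SE 0.0735, edgeR adjusted p = 6.37e-05). Timp2 inhibits MMPs and also takes part, with the product of Mmp14, in the activation of pro-MMP2 at the cell surface. It had 32317, 33036 and 34779 reads with DMSO and 29587, 33929, 28965 and 29811 with purmorphamine. Purmorphamine replicate 6 lay within the DMSO range, so that the groups overlapped (log2 change -0.17, SE 0.0558, edgeR adjusted p = 0.017, exact p = 0.0857). Timp4 was below the count needed for the test, with 10, 11 and 6 reads with DMSO and 0, 1, 1 and 2 with purmorphamine. The summed counts, 27 and 4, gave a level 9.0-fold lower per library with purmorphamine (95% interval 3.14 to 35.4, counting error only), and the groups did not overlap (exact p = 0.0286). Timp1, Timp3 and Timp4 each lie inside a synapsin gene on the opposite strand. Syn1 and Syn3 held 1 to 12 reads and Syn2 15 to 25 reads per library on their own strand.

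Of the abundant MMPs (Mmp2, Mmp14 and Mmp16) the gelatinase Mmp2 changed most. It had 15221, 15598 and 16655 reads with DMSO and 9860, 11449, 9163 and 9446 with purmorphamine. Every purmorphamine library was below the lowest DMSO library (15825 ± 743 and 9980 ± 1021 reads, SD, 1.59-fold lower, log2 change -0.71, SE 0.0638, edgeR adjusted p = 7.61e-08). The other gelatinase, Mmp9, had 10, 23 and 17 reads with DMSO and 3, 3, 4 and 7 with purmorphamine. It did not reach the count needed for the test. Its summed counts were 3.92-fold lower per library with purmorphamine (95% interval 2.22 to 7.25, counting error only, exact p = 0.0286), and a fit without the filter on low counts called it decreased (edgeR adjusted p = 0.000359). Mmp14, the membrane-anchored MT1-MMP that activates pro-MMP2, had 10550, 10846 and 11215 reads with DMSO and 8913, 10429, 8467 and 8675 with purmorphamine. The groups did not overlap, but replicate 6 came close to the lowest DMSO library (log2 change -0.30, SE 0.0607, edgeR adjusted p = 0.000618, exact p = 0.0571). Mmp15, another membrane-type MMP, fell the furthest of the tested MMPs, from 88, 89 and 109 reads with DMSO to 53, 41, 29 and 45 with purmorphamine. The groups were separate at this low count (2.27-fold lower, log2 change -1.23, SE 0.171, edgeR adjusted p = 1.54e-05).

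Mmp19, a secreted protease of broad specificity, fell 1.51-fold in mean reads (756 ± 59.6 with DMSO, 502 ± 48.4 with purmorphamine, log2 change -0.64) and Mmp11, or stromelysin-3, 1.38-fold (761 ± 19.8 and 554 ± 89.4, log2 change -0.51), both without overlap of the groups. Mmp16, a membrane-type MMP, was nearly level at 2741 ± 52.8 and 2677 ± 42.0 reads. Its call (log2 change -0.08, edgeR adjusted p = 0.135) was lost in 8 of 13 alternatives, among them 4 that left out a library: without DMSO replicate 2 or 3 or purmorphamine replicate 5 or 6 the adjusted p was 0.381, 0.208, 0.311 and 0.241. Mmp23 (15 ± 3.46 and 19.5 ± 5.26 reads) and Mmp28 (78.3 ± 11.9 and 90.5 ± 6.86), the latter called epilysin, overlapped between the groups and were not called (edgeR adjusted p = 0.367 and 0.356). Mmp23 was called increased when purmorphamine replicate 8 was left out (edgeR adjusted p = 0.137). The collagenase Mmp13 held 2, 0 and 0 reads with DMSO and 0, 0, 1 and 0 with purmorphamine, at or near nothing in both groups. Mmp17, Mmp24, Mmp25 and Mmp27 held at most 8 reads in any library. Mmp3 and the other collagenases are absent from the rows at hand and were not analysed here.

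Adam10 and Adam17, the main sheddases of cell surface proteins, hardly moved. Adam10, which cleaves Notch receptors and cadherins, had 3546, 3524 and 3563 reads with DMSO and 3245, 3057, 3421 and 3323 with purmorphamine. The groups were separate, by little (1.09-fold lower, log2 change -0.17, SE 0.0480, edgeR adjusted p = 0.00897). Adam17, the tumour necrosis factor converting enzyme that also releases ligands of the EGF receptor, had 2877, 2804 and 2826 reads with DMSO and 2666, 2612, 2733 and 2931 with purmorphamine. The highest library of all was a purmorphamine library, and the call (log2 change -0.10, SE 0.0482, edgeR adjusted p = 0.104) was lost without DMSO replicate 2 or 4 or purmorphamine replicate 5 or 6 (adjusted p = 0.276, 0.206, 0.280 and 0.255) and with library totals alone (0.395). Adam9, a widely expressed sheddase, had 4088, 4139 and 4025 reads with DMSO and 3767, 3917, 3858 and 4048 with purmorphamine. Replicate 8 overlapped the DMSO range (log2 change -0.11, SE 0.0434, edgeR adjusted p = 0.0391), and with library totals alone the adjusted p was 0.213. Adam12, a marker of growing mesenchyme, had 543, 564 and 532 reads with DMSO and 482, 521, 457 and 476 with purmorphamine. These groups did not overlap (1.13-fold lower, log2 change -0.22, SE 0.0627, edgeR adjusted p = 0.00802).

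Larger changes among ADAMs ran in both directions. Adam23, whose protein lacks an active protease and binds integrins and LGI proteins, had 617, 615 and 660 reads with DMSO and 302, 310, 297 and 319 with purmorphamine. It fell 2.05-fold with little spread in either group (log2 change -1.09, SE 0.0640, edgeR adjusted p = 3.57e-10). Adam19, known from heart and nerve development, fell 1.77-fold from 615 ± 11.5 to 348 ± 32.7 reads (log2 change -0.87, SE 0.0714). Adam15, a membrane protein with an integrin-binding motif, rose 1.7-fold from 641 ± 31.7 to 1088 ± 106 reads (log2 change 0.72, SE 0.0698). The groups were separate for Adam15, Adam19 and Adam23. Adam15 had 15.7 ± 0.864 reads per 100 reads of Adam9 with DMSO and 27.9 ± 2.80 with purmorphamine.

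The low ADAMs were less firm. Adam8, known from leukocytes and osteoclasts, rose from 29.7 ± 5.51 to 44.8 ± 7.14 reads (log2 change 0.54, edgeR adjusted p = 0.0326). Adam11, a second member without an active protease, had 52.3 ± 12.1 and 42.0 ± 4.69 reads. Its call (log2 change -0.36, edgeR adjusted p = 0.111) was lost without DMSO replicate 3 (0.526) and with DESeq2 (0.212). Of the germline ADAMs, which are known from sperm, 6 have a row and 2 were tested. Adam5 rose from 56.7 ± 7.57 to 77.5 ± 15.2 reads (edgeR adjusted p = 0.0591), a call lost without DMSO replicate 3 (0.233). Adam1a rose from 40.0 ± 6.08 to 56.2 ± 7.63 (edgeR adjusted p = 0.0467), but it shares exon bases on the same strand with Mapkapk5 and a predicted gene, and its reads are uncertain for that reason. Adam5, Adam32 and Adam9 follow each other on the minus strand of chromosome 8, with 806 bases between Adam32 and Adam9. Their values were unlike, since Adam32 held 6 to 16 reads per library.

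The procollagen N-proteinases Adamts14 and Adamts2, which remove the amino-terminal propeptide of fibrillar procollagens, moved in opposite directions. Adamts14 (chr10:61197112-61273438, minus strand) had 61, 84 and 60 reads with DMSO and 739, 975, 678 and 633 with purmorphamine. The lowest purmorphamine library was several times the highest DMSO library (68.3 ± 13.6 and 756 ± 152 reads, 11.1-fold, log2 change 3.42, SE 0.161, edgeR adjusted p = 2.07e-11). Adamts2 (chr11:50602084-50807573, plus strand) had 1685, 1802 and 1739 reads with DMSO and 1035, 1122, 959 and 987 with purmorphamine. Its groups did not overlap either, in the other direction (1742 ± 58.6 and 1026 ± 71.4 reads, 1.7-fold lower, log2 change -0.81, SE 0.0541, edgeR adjusted p = 1.74e-09). Adamts14 made up 3.49%, 4.45% and 3.34% of the reads of both genes with DMSO and 41.7%, 46.5%, 41.4% and 39.1% with purmorphamine. In RPKM the order of both genes turned round, from 0.917 ± 0.182 for Adamts14 and 13.0 ± 0.438 for Adamts2 with DMSO to 10.1 ± 2.04 and 7.66 ± 0.534 with purmorphamine. That order rests on the exon lengths used, 5197 bases for Adamts14 and 9336 for Adamts2. In reads Adamts2 stayed above Adamts14 in every purmorphamine library. Their zinc sites, printed above, differ in 3 of 33 bases. Adamts3, the other enzyme of this group, is absent from the rows at hand and was not analysed here.

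Of the ADAMTS proteases that cleave aggrecan, versican and related proteoglycans, the abundant Adamts1 and Adamts5 rose and the less abundant Adamts9 and Adamts4 fell. Adamts1 had 4305, 4481 and 4290 reads with DMSO and 7319, 7869, 7716 and 7180 with purmorphamine. All purmorphamine libraries were well above the DMSO libraries (1.73-fold, log2 change 0.74, SE 0.0476, edgeR adjusted p = 1.11e-09). Adamts5, a major aggrecanase of cartilage in mice, had 8664, 8409 and 8229 reads with DMSO and 12379, 11783, 13290 and 12749 with purmorphamine. It too rose without overlap (1.49-fold, log2 change 0.53, SE 0.0505, edgeR adjusted p = 1.86e-07). Adamts1 and Adamts5 are neighbours on the minus strand of chromosome 16 (chr16:85793827-85803113 and chr16:85856173-85901828), 53059 bases apart.

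Adamts9, a versicanase that is also needed for primary cilia, went the other way. It had 1009, 1111 and 1072 reads with DMSO and 352, 304, 353 and 364 with purmorphamine. This was the largest fall of any tested member (1064 ± 51.5 and 343 ± 26.7 reads, 3.10-fold lower, log2 change -1.68, SE 0.0663, edgeR adjusted p = 2.20e-12). Adamts9 made up 19.6% ± 0.548 of the reads of Adamts9 and Adamts1 with DMSO and 4.38% ± 0.475 with purmorphamine. Adamts4, the other long-known aggrecanase, had 172, 203 and 180 reads with DMSO and 142, 110, 111 and 129 with purmorphamine. It fell 1.5-fold, and its groups did not overlap (log2 change -0.64, SE 0.111, edgeR adjusted p = 0.000165). Adamts15 (276 ± 10.7 and 315 ± 18.8 reads) was called increased (log2 change 0.15, edgeR adjusted p = 0.14), a call lost with DESeq2 (0.240) and without DMSO replicate 2 (0.278), DMSO replicate 3 (0.308) or purmorphamine replicate 7 (0.255). Its neighbour Adamts8, 20109 bases away on the other strand of chromosome 9, held at most 5 reads in any library. Adamts20, known from pigment cell development, had 0, 1 and 0 reads with DMSO and 3, 2, 3 and 0 with purmorphamine.

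Among the other ADAMTS genes, 3 of the 7 tested rose at least 2-fold and 1 fell as far, or 2 and 1 of 6 without Adamts18. Adamts6 (chr13:104287835-104496695, plus strand), which acts on cell surface proteoglycans and microfibrils, had 156, 143 and 143 reads with DMSO and 719, 721, 848 and 709 with purmorphamine. The groups were far apart (147 ± 7.51 and 749 ± 66.0 reads, 5.09-fold, log2 change 2.30, SE 0.0886, edgeR adjusted p = 1.57e-12). Its closest relative Adamts10, which binds fibrillin microfibrils, rose from 792 ± 106 to 1051 ± 93.6 reads (1.33-fold, log2 change 0.36, edgeR adjusted p = 0.0014). Adamts16 (chr13:70727802-70841811, minus strand), known from kidney and gonad, had 105, 104 and 107 reads with DMSO and 280, 376, 267 and 268 with purmorphamine. It rose without overlap (2.83-fold, log2 change 1.45, SE 0.127, edgeR adjusted p = 5.96e-08).

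Adamts18 (chr8:113697126-113848738, minus strand), whose zinc site shares 30 of 33 bases with that of Adamts16, had 4, 0 and 1 reads with DMSO and 46, 27, 42 and 53 with purmorphamine. The summed 5 and 168 reads gave a level 25.2-fold higher per library (95% interval 10.6 to 78.6, counting error only), and the fit gave a log2 change of 4.51 (SE 0.482, edgeR adjusted p = 7.18e-07). Adamts17, an ADAMTS gene linked to eye and skeletal development, had 234, 287 and 250 reads with DMSO and 113, 148, 112 and 99 with purmorphamine. It fell 2.18-fold without overlap (log2 change -1.17, SE 0.120, edgeR adjusted p = 4.17e-07). Adamts16 made up 29.2% ± 2.29 of the reads of Adamts16 and Adamts17 with DMSO and 71.6% ± 1.08 with purmorphamine. Adamts12 and Adamts7, both of which cleave the cartilage matrix protein COMP, had lower means with purmorphamine. Adamts12 fell from 520 ± 15.1 to 414 ± 54.3 reads (log2 change -0.38, edgeR adjusted p = 0.00134). Adamts7 had 205 ± 17.2 and 176 ± 30.9 reads with overlapping groups, and its call (edgeR adjusted p = 0.0813) was lost without DMSO replicate 4 (0.254) or purmorphamine replicate 8 (0.235). Adamts13, the protease of von Willebrand factor made in liver, held at most 1 read.

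**Figure D3:**
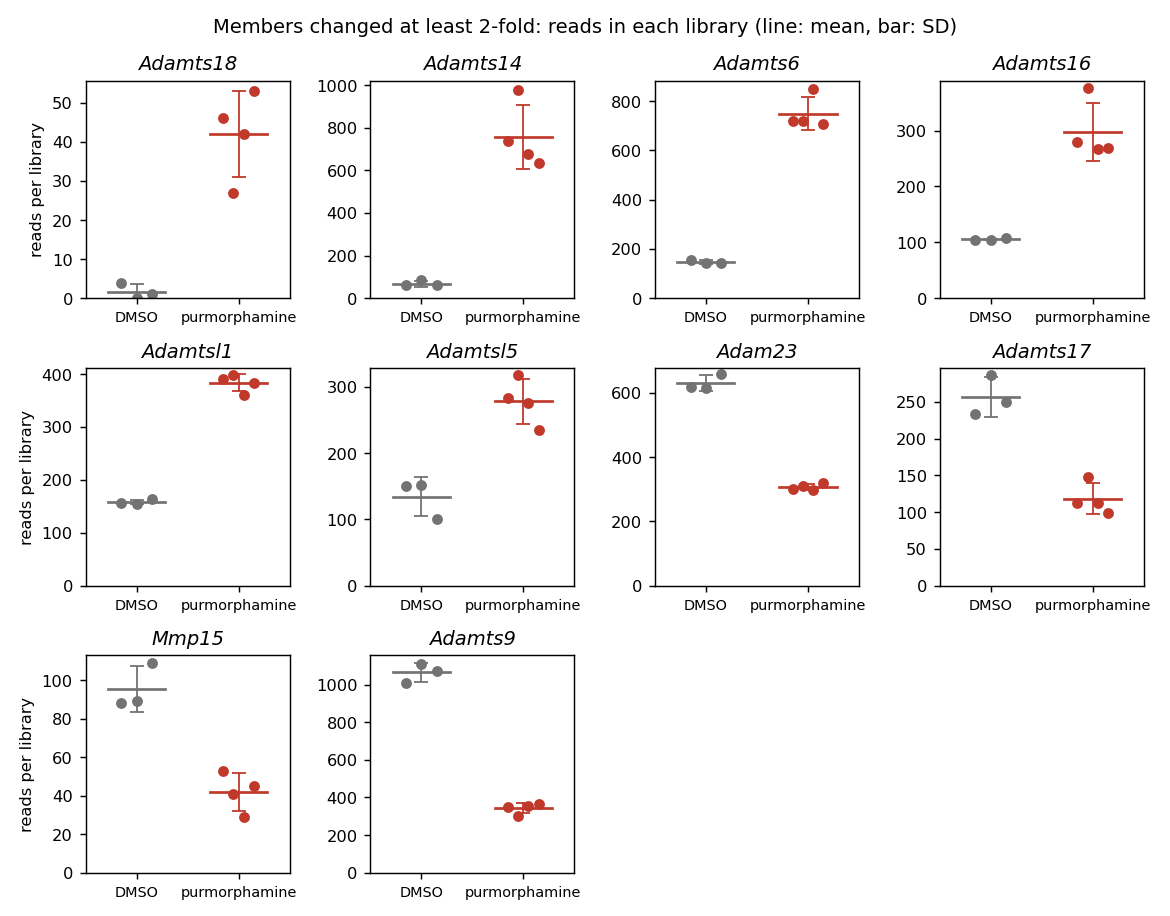
Each panel shows the deposited reads per library of a member that changed at least 2-fold, with the mean as a line and the SD as a bar, for 3 DMSO and 4 purmorphamine libraries on an axis that starts at 0. In all 10 panels the groups are separate. Adamts18 goes from at most 4 reads to at least 27, and Adamts9 from at least 1009 reads to at most 364.

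The plot of the reads of the 10 members that changed at least 2-fold shows how far apart the libraries of both groups were. It also shows single high values, such as 848 reads of Adamts6 in purmorphamine replicate 7. In replicate 6 there were, for example, 376 reads of Adamts16, 975 of Adamts14 and 148 of Adamts17. Over the 40 tested members, purmorphamine replicate 6 was the highest library of its group in 22 after scaling, beside 3, 8 and 7 for replicates 5, 7 and 8. Of the 23 decreased members it was the highest in 13. How often replicate 6 was the highest over all genes tested was not counted. Without replicate 6, 15 members increased and 21 decreased, and the share of all genes called in that fit is not given here.

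The ADAMTS-like genes, which encode matrix proteins without protease activity, mostly rose. Adamtsl1, or punctin, had 157, 154 and 163 reads with DMSO and 391, 398, 361 and 384 with purmorphamine. The groups were far apart and tight (2.43-fold, log2 change 1.23, SE 0.0797, edgeR adjusted p = 1.19e-09). Adamtsl5, which binds fibrillin microfibrils, had 150, 152 and 101 reads with DMSO and 284, 318, 275 and 235 with purmorphamine. It rose 2.07-fold without overlap (log2 change 1.0, SE 0.131, edgeR adjusted p = 7.70e-06). Adamtsl4, linked to the fibrillin fibres of the eye, rose 1.54-fold from 380 ± 24.8 to 585 ± 86.6 reads (log2 change 0.57, SE 0.0949). Adamtsl3, by far the most abundant of them, fell 1.71-fold from 7182 ± 224 to 4204 ± 213 reads (log2 change -0.82, SE 0.0481, edgeR adjusted p = 3.37e-10). There were 2.20 ± 0.115 reads of Adamtsl1 per 100 of Adamtsl3 with DMSO and 9.14 ± 0.601 with purmorphamine. Adamtsl2 held 1 read in all libraries together.

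In all, 17 members were below the count needed for the test, the highest count among them being 23, and 9 held at most 3 reads in every library. Besides Timp4, Mmp9 and the low MMPs and ADAMTS genes above, these were Adamtsl2 and Adam4, Adam18, Adam21, Adam22, Adam32 and Adam33. A fit without the filter called 4 of the 17, namely Timp4 and Mmp9 as decreased and Adam4 and Adamts20 as increased (edgeR adjusted p = 0.000356, 0.000359, 0.197 and 0.198). The share of all genes below the filter that this fit called is not given here. Adam4 had 5, 5 and 6 reads with DMSO and 10, 11, 8 and 8 with purmorphamine, but it lies inside Cox16 on the same strand.

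The make-up of the reads assigned to the families shifted along with these changes. All members together held 139996 ± 2630 reads per library with DMSO and 126170 ± 4115 with purmorphamine, or 0.976% ± 0.0184 and 0.880% ± 0.0287 of the library. MMPs gave 22.0% to 22.7% of the member reads with DMSO and 17.3% to 19.6% with purmorphamine. ADAMTS genes gave 12.5% to 13.2% and 19.4% to 21.1%, most of it from Adamts1 and Adamts5. TIMPs gave 49.5% to 50.2% and 46.9% to 47.8%, and ADAMTS-like genes, most of whose reads came from Adamtsl3, gave 5.43% to 5.82% and 4.09% to 4.5%. For these 4 families the ranges of DMSO and purmorphamine libraries did not overlap, whereas those of ADAMs did (9.16% to 9.54% and 9.31% to 10.2%), and the shares were not tested. They count reads, of which a long transcript gives more than a short one. Mmp2 fell more than its inhibitor Timp2, with 47.1, 47.2 and 47.9 Mmp2 reads per 100 Timp2 reads with DMSO and 33.3, 33.7, 31.6 and 31.7 with purmorphamine. Mmp14 had 32.6 ± 0.299 and 29.8 ± 0.774 reads per 100 reads of Timp2. The pairs set against each other here and above were picked after their values were seen, and no test is given for them.

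**Figure D4:**
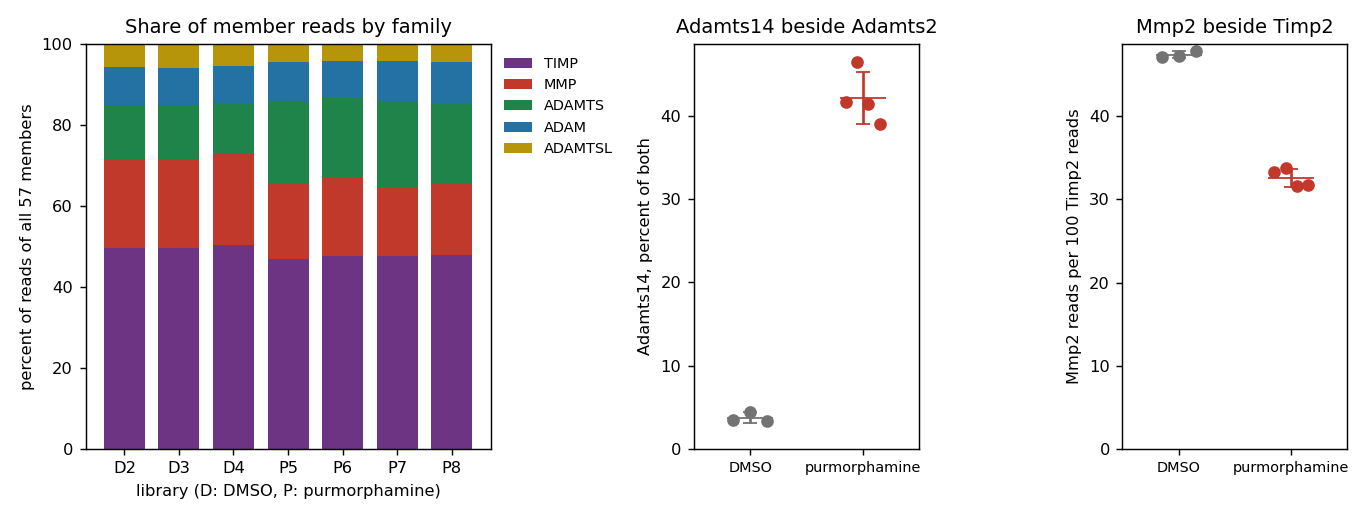
Left, the share of the reads of all 57 members held by each family in percent, 1 bar per library (D2 to D4: DMSO, P5 to P8: purmorphamine). Middle and right, points are libraries, lines means and bars SD. Adamts14 goes from 3.34% to 4.45% of the Adamts14 and Adamts2 reads with DMSO to 39.1% to 46.5% with purmorphamine, and Mmp2 from 47.1 to 47.9 reads per 100 Timp2 reads to 31.6 to 33.7.

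Genes that work with the families were read from lists of their activators, inhibitors, partners and substrates. Since 62.5% of all genes tested were called (31.4% increased, 31.1% decreased), a call by itself says little about these genes either. Of the plasminogen system and the proprotein convertases, which activate many of these proteases, 7 of 10 listed genes were tested, and 1 increased, 4 decreased and 2 were not called. Plat, the tissue-type plasminogen activator, had 184, 205 and 188 reads with DMSO and 797, 760, 760 and 694 with purmorphamine. Its groups did not overlap, with a level 3.91-fold higher with purmorphamine (log2 change 1.92, SE 0.0750, edgeR adjusted p = 1.85e-12). Pcsk6, a convertase that cleaves protease propeptides, fell 1.73-fold from 374 ± 25 to 217 ± 11.4 reads (log2 change -0.84).

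Of the other inhibitors and regulators 3 of 10 listed genes were tested, with 2 increased and 1 decreased. Lrp1, the receptor that takes up TIMP3, ADAMTS proteases and MMPs from the medium, rose 1.62-fold from 16300 ± 2084 to 26342 ± 3291 reads (log2 change 0.65, SE 0.0902). The next list held the iRhoms and TspanC8 tetraspanins, which escort ADAM17 and ADAM10 to the cell surface, and also Frmd8, which is neither. Of this list 6 of 9 were tested, and 1 increased, 3 decreased and 2 were not called, Frmd8 among the latter. Tspan5, an ADAM10 partner, had 512, 475 and 545 reads with DMSO and 1739, 1765, 1720 and 1802 with purmorphamine. It rose 3.44-fold (log2 change 1.73, SE 0.0560, edgeR adjusted p = 2.38e-13), whereas Adam10 itself had a log2 change of -0.17. Of the astacin proteases and procollagen C-proteinase enhancers, which act at the other end of procollagen from Adamts2 and Adamts14, 4 of 7 were tested, with 1 increased, 2 decreased and 1 not called, and none changed by 1.5-fold.

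Of the substrates and microfibril partners 9 of 11 were tested, and 6 increased and 3 decreased, with a median log2 change of 0.90 beside 0.0038 for all genes. Fbln1, Thsd4 and Acan had a mean under 10 reads in the lower group and passed the filter through the other group alone, and without them 4 of 6 increased and 2 decreased, with a median of 0.70. Fbn1 and Fbn2, the fibrillins of microfibrils, rose 2.42-fold and 4.36-fold (log2 change 1.23 and 2.08). Thsd4, or ADAMTSL6, a fibrillin-binding ADAMTS-like protein whose symbol falls outside the rule for members, had 7, 5 and 7 reads with DMSO and 75, 73, 87 and 81 with purmorphamine (log2 change 3.57, SE 0.228). Fbln1, a fibulin that binds Adamts1, rose from 4 to 8 reads to 70 to 131 (log2 change 3.85, SE 0.307), and Fbln2 rose 1.93-fold. The proteoglycan aggrecan (Acan) fell to 3 to 11 reads from 112 to 131 (log2 change -4.33), and Comp, cleaved by Adamts7 and Adamts12, fell 1.73-fold (log2 change -0.84). These lists are described by counts alone, and whether any of them stands apart from other genes was not tested.

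**Figure D5:**
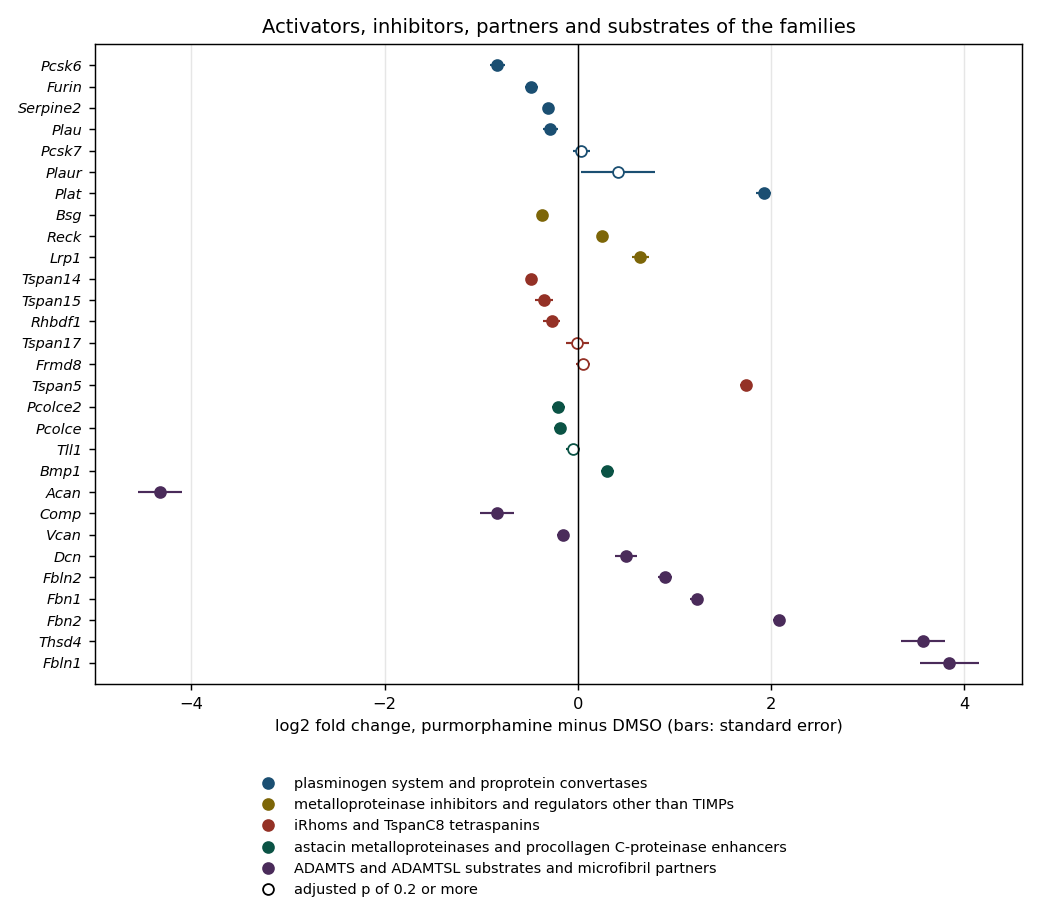
Each point is the log2 fold change of a tested gene from the lists of activators, inhibitors, partners and substrates, purmorphamine minus DMSO, with its standard error as a bar and coloured by list. Open points have an adjusted p of 0.2 or more. Plat (1.92), Tspan5 (1.73), Thsd4 (3.57) and Fbln1 (3.85) lie to the right and Acan (-4.33) to the left.

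The promoters of the members were searched for letters bound by 2 kinds of factor. RefSeq windows (GRCm38.p6, 250 bases before to 50 after the start) were found for 35 of the 57 members. The GLI motif GACCACCCA, on either strand, was in 0 of the 35, beside 0.253% of the 32851 windows of all genes. The 35 members have 38 windows. At so low a share, 0 matches are likely in any 38 windows, so this count says nothing particular about the members. The AP-1 motif TGANTCA, which reads the same on both strands, was in 2 of the 35, Adam19 and Mmp13, beside 7.81% of all windows. Neither share says whether a factor binds there. The site of Adam19, which fell 1.77-fold, is shown with its flanks because it is the only match in a tested member, with the motif in capitals (chr11:46055823-46055889, plus strand, motif ending at position -125 from the start).
Adam19: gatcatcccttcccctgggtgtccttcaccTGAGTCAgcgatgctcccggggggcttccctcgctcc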

How the data were processed

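Total RNA of C3H10T1/2 cells was sequenced as stranded, ribosomal RNA-depleted libraries, 3 with DMSO and 4 with purmorphamine. The authors aligned the reads (STAR 2.5.3a and mm9 are named in the submitters' processing notes), resampled them to equal numbers per library and deposited sense-strand read counts per gene. Resampling removes depth differences and cannot restore genes lost at low counts. The gene annotation is not given in the sources used here. Totals were 14337225 to 14342154 counts per library.

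From the deposited counts, edgeR 4.0.16 in R 4.3.3 (TMM factors 0.978 to 1.02, filterByExpr, quasi-likelihood F test, Benjamini-Hochberg over 12388 genes) gave log2 changes, standard errors and adjusted p, with calls under 0.2. DESeq2 1.42.0 was an alternative, as was limma-voom (limma 3.58.1), the tool the study names. Scripts were tested on simulated counts. The exact permutation test used log2 of TMM-scaled counts plus 1. Fold values and means of reads are from deposited counts, whereas the thresholds of 1.5-fold and 2-fold were applied to the fitted log2 change. Adamtsl4, 1.54-fold higher in reads, therefore lies below the 1.5-fold threshold with a log2 change of 0.57. Positions and exon lengths come from GENCODE M21 by Ensembl identifier (all 57 members, 95.5% of genes), not from the table's own mm9 coordinates. Intervals on summed counts are exact 95% intervals and cover counting error only.

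The members and lists were chosen with earlier results of these data known. Values per library are given for the TIMPs, for called members changed at least 2-fold with a mean of at least 20 reads, for the 5 most abundant members per kilobase, and for Mmp2, Mmp9, Mmp13, Mmp14, Adam10, Adam12, Adam17, Adamts1, Adamts4, Adamts5 and Adamts9 (the rule also named Mmp3, which is not analysed here). Adamts2, Adamts20 and Adam4 were added after their values were seen. Genes of the other lists are named where called and changed at least 1.5-fold, and Frmd8 is named because it stands outside the name of its list. Alternatives changed the scaling, the tool, the filter on low counts and the threshold, or left out each library in turn. The 13 alternatives counted for single members leave out the threshold of 1.5-fold. A gene of these lists is not reported here and is left out of their counts.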

Additional observations from a re-analysis of the deposited data

Results flagged for a closer look

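In 5 of the 40 tested members, 1 purmorphamine library stood apart from the rest of its group. There the gap to its nearest neighbour, divided by the range of the 4 libraries, passed Dixon's 95% critical value. Gap and range were taken after TMM scaling, whereas the reads printed below are the deposited counts. Chance alone would give about 2 in 40 if the members were independent. They were all read in the same libraries, so the 5 found do not test for an excess over chance. Purmorphamine replicate 6 was high in Timp2 (33929 reads, gap over range 0.881), in Adamts16 (376 reads, 0.882) and in Adam11 (49 reads, 0.927). Replicate 7 was high in Adamts6 (848 reads, 0.921), and replicate 5 in Adam5 (100 reads, 0.85). Without replicate 6, the log2 change of Timp2 kept its call and direction, as did those of Adamts16 and Adam11.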

How the results depend on the processing

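The 13 alternatives counted for single members leave out the threshold of 1.5-fold, with which 18 members stay called. Of the 38 called members, 30 kept their call and direction in all 13. Adamts18 kept them in the 12 that tested it, since the stricter filter removes it. No member turned its direction. The other 7 (Adam5, Adam9, Adam11, Adam17, Adamts7, Adamts15 and Mmp16) lost the call in at least 1, and of the 2 not called, Mmp23 gained it without purmorphamine replicate 8. The cause was not tested. Members increased and decreased numbered 15 and 23, and 8 and 10 with a change of at least 1.5-fold, 13 and 19 at an adjusted p under 0.05, 15 and 20 with library totals alone, 14 and 21 with DESeq2, 15 and 23 with limma-voom, 17 and 24 without the filter on low counts and 14 and 23 with at least 10 counts in every library. Leaving out each library in turn gave 13 to 16 increased and 21 to 23 decreased. The share of all genes called is known here for the main rule (62.5%) and with the 1.5-fold threshold (15.4%). It is not given for the other settings, so their counts do not set the members against other genes. Without TMM factors the median log2 change of all genes moved by 0.048. Some subgroups are so small that 1 gene decides their count: without DMSO replicate 2, Mmp9 passed the filter and both gelatinases decreased. No paired analysis was possible because no number in the labels occurs in both groups. At this depth changes in the 17 members below the filter rest on 23 reads or fewer per library.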
